A study of Rattus norvegicus with 9 samples.

Results

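The 6 genes Sgk1, Fkbp5, Tsc22d3, Klf9, Errfi1 and Nfkbia, which glucocorticoids are known to induce, the 2 receptors for these steroids (Nr3c1 and Nr3c2) and the enzyme that regenerates active hormone inside cells (Hsd11b1) were followed across the cerebral cortex of 9 rats. These 9 genes were taken by symbol from the 10412 genes that the array's platform annotation names, and each was measured by 1 probe. The probes were ILMN_1349269 for Sgk1, ILMN_1376629 for Fkbp5, ILMN_1363488 for Tsc22d3, ILMN_1366897 for Klf9, ILMN_1366212 for Errfi1, ILMN_1356628 for Nfkbia, ILMN_1363519 for Nr3c1, ILMN_1354582 for Nr3c2 and ILMN_1369135 for Hsd11b1. All animals were untreated Sprague-Dawley controls, 60 days old, and formed the non-irradiated arm of a cortical dysplasia study whose other arm, the young of irradiated animals, was not analysed here. The 6 males and the 3 females each gave 1 Illumina bead array of cortex RNA. Each title also carries 1 of 3 numbers, here the lowest, middle and highest title number, shared by 2 males and 1 female each, and the labels do not explain it. No group received a steroid or a stressor, per the labels, and the time of day at which tissue was taken is not given in the sources used here.

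Corticosterone, the main glucocorticoid of the rat, enters cells and binds the glucocorticoid receptor (Nr3c1) and, with higher affinity, the mineralocorticoid receptor (Nr3c2). Bound receptors move to the nucleus and act on genes through paired short sequences called glucocorticoid response elements. Several of the induced genes feed back on signalling: Fkbp5 is a co-chaperone that lowers the receptor's affinity for hormone, Nfkbia holds NF-kappa-B in the cytoplasm, and Errfi1 inhibits the epidermal growth factor receptor.

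Values below are log2 of background-corrected, quantile-normalized probe intensity, called the level, and the level of 1 probe cannot be set against that of another. Mean array intensity was 183.6 to 185.4 on 3 dim arrays (male 2, male 4 and female 2) and 212.2 or above on the other 6. Of 9 measured markers of cortical excitatory neurons, 8 were detected on every array, among them Slc17a7 and Camk2a, and 13 of 13 oligodendrocyte and myelin markers were too. The detection limit was each array's own 25th percentile, so most probes pass it on any array. Of the 18531 tested probes, 13002 were detected on every array, so these counts say little about the tissue. Detection on every array does not separate regions, since 6 of 8 measured hippocampal markers were detected on all arrays too. With 9 arrays, the median SD of a probe over the animals was 0.11 among the 13002 probes detected on all of them. The labels describe each sample as 1 animal, so p-values measure the spread between animals.

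The start regions of the genes show how the response genes differ in sequence, and 4 are printed here for the genes whose levels are compared most below. RefSeq's promoter table (build GRCr8) held 12 windows for 7 of the 9 genes, each of 300 bases from 250 before to 50 after an annotated start; Nr3c2 and Hsd11b1 had no entry. Capitals mark the pattern GGGNNNNNCC, a loose form of the kappa-B site, on either strand. The windows are Errfi1 (chr5:166606591-166606890, plus strand), Nfkbia (chr6:78597023-78597322, minus strand), the last of 3 Sgk1 starts (chr1:24804782-24805081, minus strand) and Fkbp5 (chr20:6543506-6543805, minus strand), each written along its gene's own strand.
Errfi1: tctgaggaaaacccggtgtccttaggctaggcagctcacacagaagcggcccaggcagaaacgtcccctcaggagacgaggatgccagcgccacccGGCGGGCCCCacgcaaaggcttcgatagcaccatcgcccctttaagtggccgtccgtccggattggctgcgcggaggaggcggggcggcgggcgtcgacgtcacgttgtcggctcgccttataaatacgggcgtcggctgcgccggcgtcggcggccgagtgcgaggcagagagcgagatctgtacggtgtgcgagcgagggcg
Nfkbia: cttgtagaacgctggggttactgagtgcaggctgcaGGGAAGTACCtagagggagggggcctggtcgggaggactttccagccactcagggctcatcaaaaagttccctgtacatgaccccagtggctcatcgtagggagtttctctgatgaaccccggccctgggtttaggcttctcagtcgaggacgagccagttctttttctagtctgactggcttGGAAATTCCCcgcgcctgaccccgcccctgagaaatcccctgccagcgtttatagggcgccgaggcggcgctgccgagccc
Sgk1: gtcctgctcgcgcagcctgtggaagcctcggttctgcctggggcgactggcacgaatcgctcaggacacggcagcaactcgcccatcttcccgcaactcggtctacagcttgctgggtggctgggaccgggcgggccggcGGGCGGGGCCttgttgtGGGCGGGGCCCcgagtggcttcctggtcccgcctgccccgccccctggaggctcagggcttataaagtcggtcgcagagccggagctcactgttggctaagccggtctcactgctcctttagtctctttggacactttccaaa
Fkbp5: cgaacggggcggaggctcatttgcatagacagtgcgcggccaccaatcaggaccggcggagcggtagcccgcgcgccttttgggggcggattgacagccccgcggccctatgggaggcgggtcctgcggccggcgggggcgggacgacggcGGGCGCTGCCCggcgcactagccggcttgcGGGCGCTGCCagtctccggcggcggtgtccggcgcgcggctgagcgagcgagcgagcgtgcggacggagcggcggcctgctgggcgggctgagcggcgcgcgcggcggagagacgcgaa
The full response element, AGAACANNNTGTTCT, was in none of the 12 windows, and neither were the single hexamer TGTTCT of that element, the E-box CACGTG or the cAMP element TGACGTCA, all searched on both strands. Among all 33469 windows of the table, 0.0149% held the full element, 20.7% the single hexamer, 6.42% the E-box and 1.83% the cAMP element. The kappa-B pattern was in 8 of the 12 windows, against 47.3% of all windows. By gene, with up to 3 windows each, it was in 6 of the 7, all except Klf9, and the share of windows does not apply to that count. Of the Sgk1 windows only the last, printed above, held it, and of the Nr3c1 windows only the last. Nfkbia held GGGAAGTACC at position -214 from its start and GGAAATTCCC, a match on the opposite strand, at position -31. In the Errfi1 window the match began at position -154. Some matches overlapped one another, at positions -99 and -98 for Fkbp5 and at positions -93 and -92 for Sgk1. A match is a description of these letters and not of a bound site.

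Sgk1, a kinase that raises the activity of ion channels and transporters, varied most. Its level was 9.70, 11.41, 11.49, 11.40, 10.32 and 9.55 in males 1 to 6, and 10.46, 11.60 and 11.26 in females 1 to 3. The span was 2.05 log2 units, or 4.15-fold, and the unnormalized intensity ran from 765.8 in male 6 to 3192 in male 3. Its SD of 0.80 stood at the 99.9th percentile of probes detected on all arrays. Males 1, 5 and 6 and female 1 were low, and the widest gap between neighbouring animals, 0.80, lay between female 1 and female 3. The 4 animals below that gap were themselves spread out, and both sexes stood on both sides.

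Nfkbia, the inhibitor that NF-kappa-B itself induces, ran from 8.41 to 9.42 in males, with a median of 9.02, and stood at 8.93, 9.40 and 9.22 in females 1 to 3. Errfi1 ran from 7.52 to 8.41 in males, with a median of 8.04, and stood at 7.68, 8.42 and 8.11 in females. Male 1 was the lowest animal for both genes, and male 4 and female 2 were the highest. The spans were 2.01-fold for Nfkbia and 1.87-fold for Errfi1, with SDs at the 97.9th and 97.8th percentiles of probes detected on all arrays.

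Tsc22d3, which encodes the anti-inflammatory leucine zipper protein GILZ, ran from 9.38 to 10.12 in males, with a median of 9.65, and stood at 9.90, 9.97 and 10.07 in females. Klf9, a zinc finger transcription factor, ran from 10.65 to 11.34 in males, with a median of 11.07, and stood at 11.27, 11.24 and 11.31 in females. For both genes male 5 was the lowest animal and male 3 the highest, while the other 5 males all lay below the 3 females. Fkbp5 had another order: it ran from 8.55 to 9.05 in males, with a median of 8.70, and stood at 9.33, 8.62 and 9.31 in females. Females 1 and 3 stood above every other animal for Fkbp5, and female 2 lay among the lower males.

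The receptors were dim and varied little. Nr3c1 ran from 5.91 to 6.06 in males and from 5.83 to 5.95 in females, and its probe passed the detection limit on only 6 of 9 arrays, with unnormalized intensities of 39.4 to 48.1. Its values therefore lie close to the background of these arrays, and the small spread of 0.23 log2 units is a spread of near-background signal. Nr3c2 was detected on all 9 arrays and ran from 6.25 to 6.47 in males and from 6.25 to 6.41 in females. Hsd11b1 was bright and more variable, from 9.82 to 10.68 in males and 10.11 to 10.23 in females, a span of 1.83-fold. Male 4 was highest for Nr3c2 and for Hsd11b1.

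**Figure D1:**
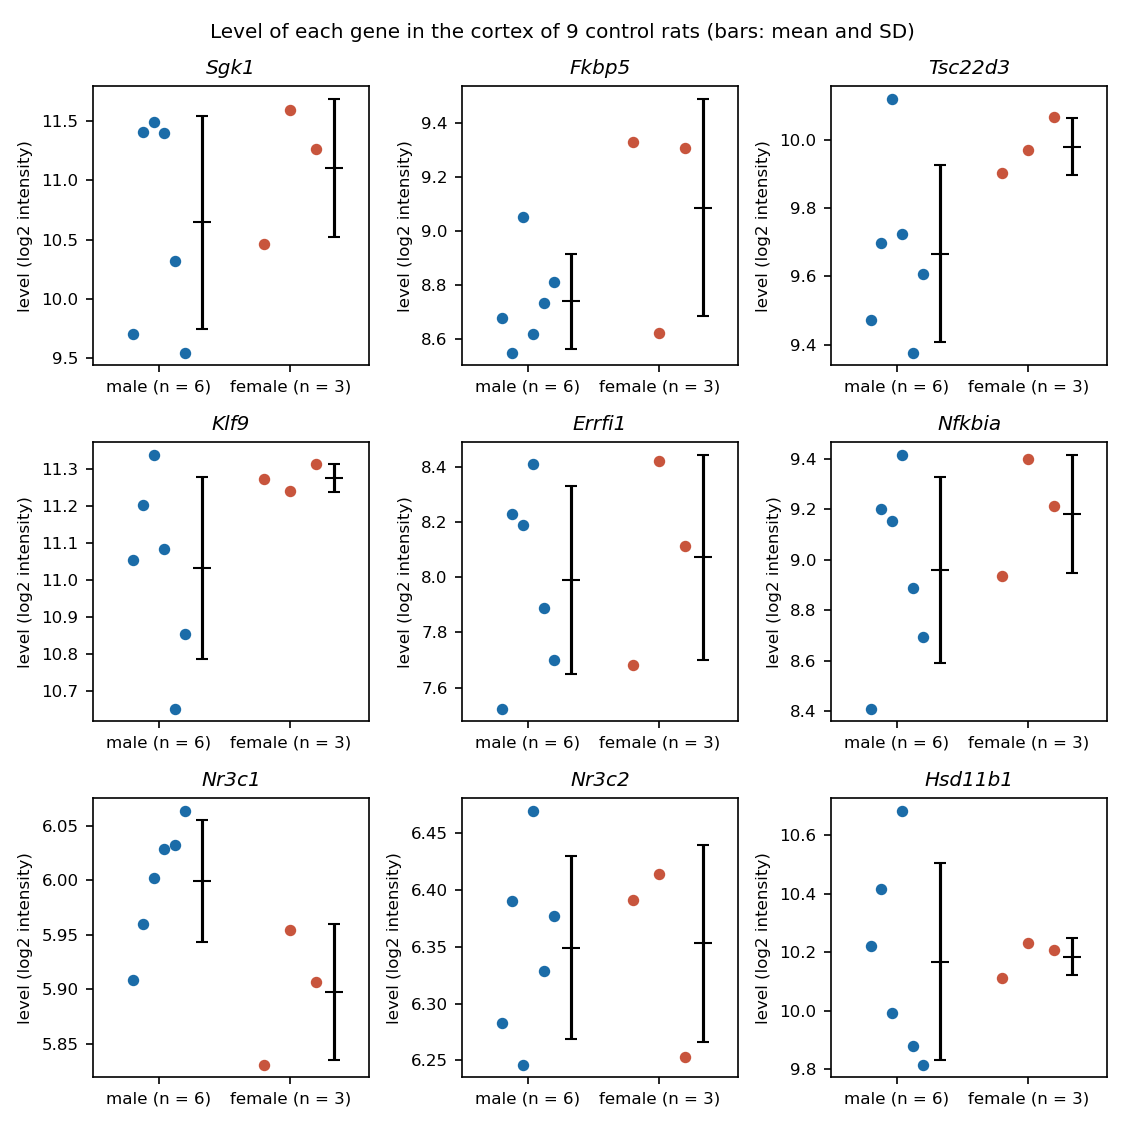
Level (log2 intensity) of each of the 9 genes, 1 panel per gene with its own vertical axis, with 1 point per animal for 6 males and 3 females and black bars for the mean and SD. Sgk1 spans 2.05 log2 units, whereas Nr3c1 and Nr3c2 span 0.23 and 0.22, and the sexes overlap in every panel.

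Besides the title number, sex was the one labelled property that differed between the animals. No member differed between the sexes by limma after Benjamini-Hochberg adjustment over 18531 probes, where the adjusted p was 0.9999 for each of the 9 genes. Across the array 0 probes were called (0%), and 439 (2.37%) had an unadjusted p under 0.05. Of the 9 genes, 8 had a lower mean in males, with a median male minus female difference of -0.22, against 50.3% of all tested probes lower in males and a median of -0.0004. These 8 are not independent counts, since several of them moved together across the same animals.

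Tsc22d3 was the 1 member among those 439 probes. It averaged 9.67 ± 0.26 in males (SD, n = 6) and 9.98 ± 0.08 in females (SD, n = 3), a difference of -0.31 ± 0.14 (SE; limma, unadjusted p = 0.043, adjusted p = 0.9999). Fkbp5 averaged 8.74 ± 0.18 in males and 9.09 ± 0.40 in females, a difference of -0.35 ± 0.16 (SE; limma, unadjusted p = 0.051). Klf9 averaged 11.03 ± 0.25 in males and 11.28 ± 0.04 in females, with a difference of -0.24 ± 0.13 (SE). For Sgk1 the means were 10.65 ± 0.90 in males and 11.11 ± 0.58 in females, so the difference of -0.46 ± 0.48 was no larger than its own error. Nfkbia (-0.22 ± 0.20), Errfi1 (-0.08 ± 0.21), Hsd11b1 (-0.02 ± 0.17) and Nr3c2 (-0.0036 ± 0.06) also differed by about their error or less. Nr3c1 alone averaged higher in males, by 0.10 ± 0.05 (SE), with the limit of detection named above.

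The number in the title was examined as a possible batch, since each number holds both sexes. No member differed over the 3 numbers by the limma F test adjusted for sex, with adjusted p of 0.50 to 0.92. No probe was called on the array (0%), and 1772 (9.56%) had an unadjusted p under 0.05. Errfi1 was the 1 member among those, with means of 7.81 ± 0.37 for the lowest, 8.34 ± 0.13 for the middle and 7.90 ± 0.21 for the highest number (SD, n = 3 each; limma, adjusted p = 0.50). Sgk1 was likewise highest for the middle number, at 10.52 ± 0.86, 11.50 ± 0.10 and 10.38 ± 0.86 in the same order. All 3 animals of the middle number were high in Sgk1, whereas the other 2 numbers each held both high and low animals. Within each number the mean of the 2 males lay below the female for Tsc22d3 and Klf9, with differences of -0.32, -0.05 and -0.58 for Tsc22d3 from the lowest to the highest number. Sgk1 gave 0.09, -0.15 and -1.33 in the same order, so only the highest number held a wide sex difference in Sgk1.

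Sgk1, Errfi1 and Nfkbia varied together across the animals. Errfi1 and Nfkbia gave a Pearson r of 0.95 (n = 9, exact two-sided permutation p = 0.000121) and a Spearman rho of 0.88 (exact p = 0.0031). Sgk1 gave r = 0.93 with Nfkbia (exact p = 0.000639; rho = 0.78, exact p = 0.017) and r = 0.92 with Errfi1 (exact p = 0.0011; rho = 0.85, exact p = 0.0061). The same animals set these relations: males 1, 5 and 6 and female 1 were low in all 3 genes, and the other 5 animals were high in all 3. In all, 36 pairs among the 9 genes were computed, of which 24 were positive, with a median r of 0.35, and 5 had an exact p under 0.05.

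These 3 relations did not rest on the extreme animals. Without the 2 animals farthest from the median of the first gene, r was 0.98 for Errfi1 with Nfkbia, 0.89 for Sgk1 with Nfkbia and 0.90 for Sgk1 with Errfi1 (n = 7). Over the 6 males alone, r was 0.995, 0.92 and 0.95 in the same order. The 3 dim arrays all belong to the high animals, and mean array intensity itself gave r = -0.70 with Errfi1, -0.69 with Nfkbia and -0.60 with Sgk1 (n = 9; exact p = 0.044, 0.042 and 0.092). Over the 6 brighter arrays those values were 0.07, -0.17 and -0.06, and the genes still gave r = 0.91 (Errfi1 with Nfkbia), 0.91 (Sgk1 with Nfkbia) and 0.91 (Sgk1 with Errfi1; exact p = 0.031, the highest of the 3). A title number holds 3 animals, too few for an r of its own; on residuals from the means of the 3 numbers r was 0.92, 0.91 and 0.90.

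**Figure D2:**
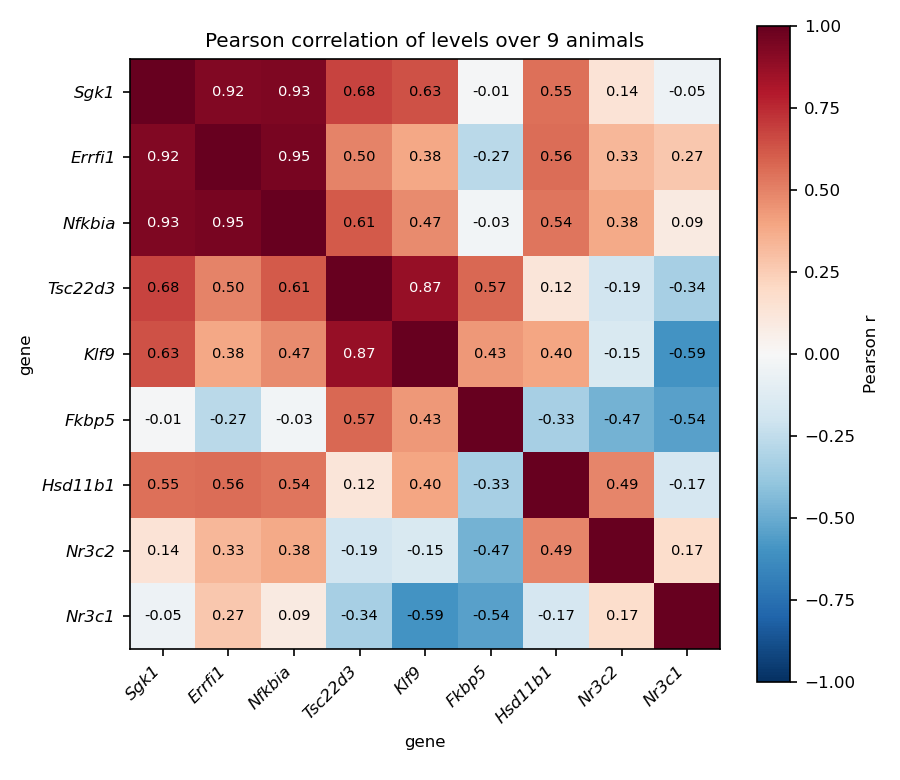
Pearson r between the levels of each pair of the 9 genes over 9 animals, on a colour scale from -1 (blue) to 1 (red), with the value printed in each cell. Sgk1, Errfi1 and Nfkbia form a block at 0.92 to 0.95, Tsc22d3 and Klf9 a pair at 0.87, and Fkbp5 has values near 0 with Sgk1 and Nfkbia.

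Tsc22d3 and Klf9 formed another close pair, with r = 0.87 (n = 9, exact permutation p = 0.0011) and rho = 0.95 (exact p = 0.0004). Without males 3 and 5, which were farthest from the Tsc22d3 median, r was 0.78 (n = 7, exact p = 0.035). Without males 5 and 6, which were farthest from the Klf9 median, it was 0.92 (n = 7). It was 0.83 over the 6 males and 0.90 over the 6 brighter arrays. Male 5, lowest for both genes, also had the lowest summed level of the 13 oligodendrocyte and myelin markers, at -0.92 (mean log2 deviation from each gene's median), against -0.15 to 0.22 in the other males and -0.16 to 0.19 in females. Of these 13 markers, all 13 correlated positively with Klf9 and all 13 with Tsc22d3, against 51.7% and 50.4% of all named genes. This was not particular to the pair, since 12 were positive with Sgk1 and 11 each with Errfi1 and Nfkbia. The summed marker level gave r = 0.83 with Klf9 (exact p = 0.0079, rho = 0.63), or 0.44 without the 2 farthest animals. With Tsc22d3 it gave r = 0.66 (exact p = 0.031), or 0.21 without them. With Sgk1 it gave r = 0.48 (exact p = 0.18) and rho = 0.73 (exact p = 0.031), or r = 0.63 without them. Male 3, highest for both genes, had the highest summed level of 12 choroid plexus markers, at 1.11, against -0.10 to 0.46 in the other males and -0.04 to 0.05 in females. The summed level of 8 endothelial and pericyte markers gave r = -0.72 with Tsc22d3 and -0.69 with Klf9, and -0.81 and -0.82 without the 2 farthest animals (n = 7). Over the 6 males it gave -0.48 and -0.52. With any 1 animal left out, male 3 and male 5 included, the pair's r stayed between 0.82 and 0.93. In bulk cortex, fewer cells of a type and less RNA per cell cannot be told apart, and the part of these markers in the pair's covariation was not tested beyond those values. Sgk1 and Tsc22d3 gave r = 0.68 (n = 9, exact p = 0.050) and rho = 0.70 (exact p = 0.043). Without males 1 and 6, the 2 farthest from the Sgk1 median, r was 0.57 (n = 7, exact p = 0.18). It was 0.65 without the 2 farthest from the Tsc22d3 median (n = 7) and 0.82 over the 6 brighter arrays (exact p = 0.057).

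Fkbp5, although a textbook target of the same receptor, had no Pearson correlation with another member at an exact p under 0.05 as processed here. Without normalization between arrays, however, it gave r = 0.78 with Tsc22d3 (n = 9, exact p = 0.016) and 0.69 with Klf9 (exact p = 0.048). Its r was -0.01 with Sgk1, -0.03 with Nfkbia and -0.27 with Errfi1, and 0.57 with Tsc22d3 (n = 9, exact permutation p = 0.11; rho = 0.37) and 0.43 with Klf9. Over the 6 brighter arrays Fkbp5 gave r = 0.66 with Sgk1 (exact p = 0.18), 0.74 with Nfkbia and 0.84 with Tsc22d3. None of these was past 0.05 (n = 6). Mean array intensity gave r = 0.42 with Fkbp5 (n = 9, exact p = 0.28). Males 2 and 4 and female 2, the dim arrays, were the 3 lowest animals for Fkbp5 and among the highest for Sgk1. The sign of the relation between Fkbp5 and Sgk1 thus changed with these 3 arrays. The part of array intensity in that change was not tested.

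**Figure D3:**
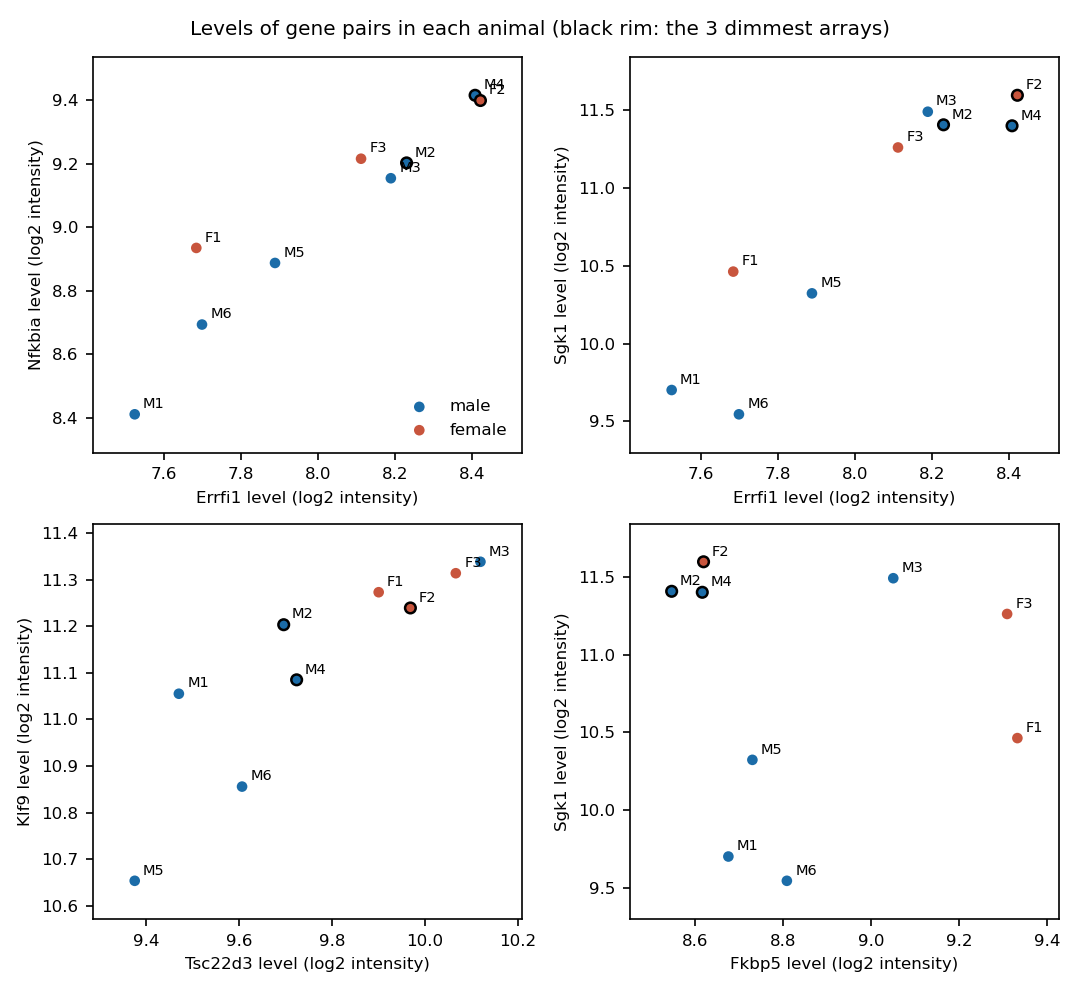
Level of 1 gene against another (log2 intensity) for 4 pairs, with blue points for 6 males, red points for 3 females, labels M1 to M6 and F1 to F3, and a black rim on the 3 dim arrays. Errfi1 with Nfkbia, Errfi1 with Sgk1 and Tsc22d3 with Klf9 rise together, whereas in the panel of Fkbp5 with Sgk1 (r = -0.01) the dim arrays sit at upper left.

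No correlation of the receptors or Hsd11b1 with a response gene had an exact p under 0.05 as processed here. Fkbp5 crossed that threshold with Nr3c1 under scaling to the 75th percentile (r = -0.77, n = 9, exact p = 0.020) and with Nr3c2 without female 1 (r = -0.74, n = 8, exact p = 0.028). Nr3c1, at its near-background level, gave r between -0.59 (Klf9) and 0.27 (Errfi1) with the 6 response genes. Nr3c2 gave -0.47 with Fkbp5 and up to 0.38 with Nfkbia. Hsd11b1 gave r = 0.55 with Sgk1, 0.56 with Errfi1 and 0.54 with Nfkbia (n = 9), but its own level was tied to mean array intensity (r = -0.77, exact p = 0.013, or -0.72 without the 2 farthest animals). Over the 6 brighter arrays Hsd11b1 gave r = 0.26 with Sgk1, -0.07 with Errfi1, 0.01 with Nfkbia and -0.37 with mean array intensity. Without the 2 animals farthest from the median of the response gene, r was 0.54, 0.81 and 0.75 with Sgk1, Errfi1 and Nfkbia (n = 7). Of these, Errfi1 crossed 0.05 (exact p = 0.029). Without the 2 farthest from the Hsd11b1 median, r was 0.27, 0.24 and 0.19 in the same order.

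**Figure D4:**
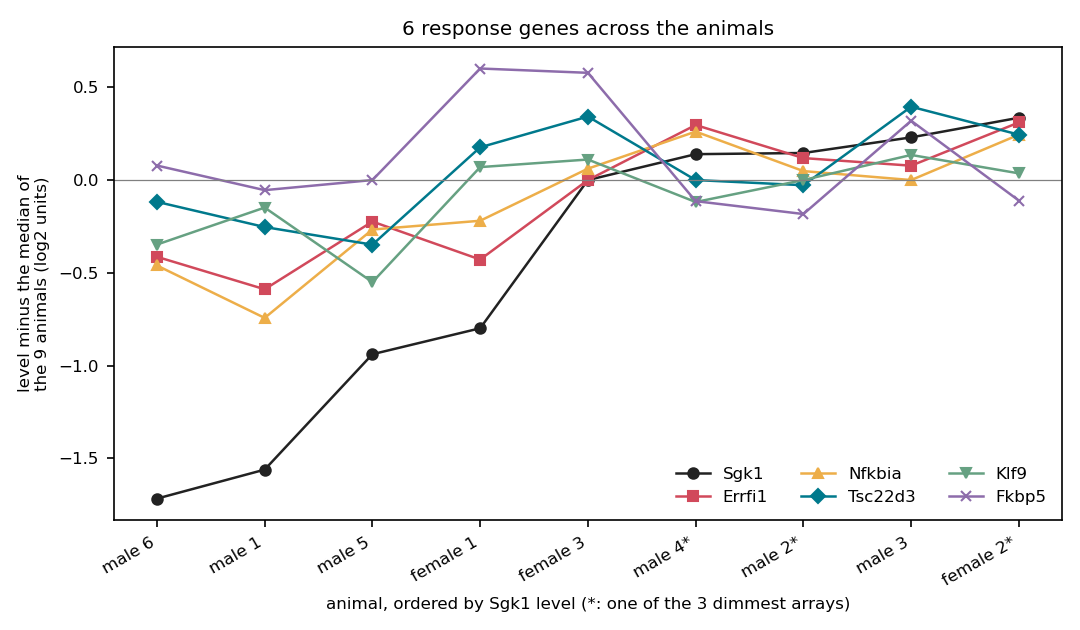
Level of 6 response genes in each animal minus the median of the 9 animals (log2 units), with animals ordered from low to high Sgk1 and a star on the 3 dim arrays. Sgk1 climbs from -1.72 to 0.34 with Errfi1 and Nfkbia beside it, while Fkbp5 (purple) peaks in females 1 and 3.

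To set the trio against the whole array, every tested probe was regressed on the level of each member with limma, with p adjusted over the 18530 other probes. With Errfi1 as predictor 26 probes (0.14%) were called, and 2 of the 8 other members were among them: Nfkbia with a slope of 0.96 ± 0.11 log2 units per log2 unit of Errfi1 (SE; adjusted p = 0.026) and Sgk1 with a slope of 2.25 ± 0.29 (adjusted p = 0.035). With Nfkbia as predictor 3 probes (0.0162%) were called, Sgk1, Errfi1 and Zfp189. With Sgk1 as predictor 3 probes (0.0162%) were called, Zfp189, Sorcs3 and Pdk4, while Nfkbia and Errfi1 came near with limma adjusted p of 0.054 and 0.065. For each of the other 6 predictors 0 probes (0%) were called, with 760 (Tsc22d3) to 3142 (Hsd11b1) at an unadjusted p under 0.05. Among all 18530 probes, Errfi1 had the highest r with Nfkbia, and Tsc22d3 ranked 36 by r with Klf9.

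These calls changed with the arrays used, while the slopes changed little. With the title number as a block, 0 probes were called with Errfi1, Nfkbia or Sgk1, and the slopes of Nfkbia and Sgk1 on Errfi1 were 1.04 and 2.47 (limma, adjusted p = 0.18 each). Over the 19 alternatives tried, the slope of Nfkbia on Errfi1 stayed between 0.82 and 1.07, yet its limma adjusted p ran from 0.0035 to 1.00. The number called with Errfi1 was 0 without male 2, male 6 or female 2, 1 without male 4, 5 without female 1, 94 without male 1 and 114 without female 3. With Sgk1 it was 6 without male 5, 0 without male 1 or male 6, and 1 without male 2, 3 or 4 or female 2 or 3. With Nfkbia it was 1 without male 4 or female 1 and 0 without any other single animal.

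Zfp189, a zinc finger protein gene, was called with all 3 predictors. Its level ran from 6.58 to 7.72 in males and was 7.09, 8.11 and 7.68 in females 1 to 3, with male 1 and male 6 lowest, and it rose by 0.62 ± 0.06 per log2 unit of Sgk1 (SE; limma, adjusted p = 0.0084; r = 0.96). Pdk4, the pyruvate dehydrogenase kinase that fasting and glucocorticoids induce, rose by 0.24 ± 0.03 per unit of Sgk1 (limma, adjusted p = 0.034; r = 0.97). The Pdk4 probe was dim, detected on 7 of 9 arrays, and its level ran only from 5.78 in male 6 to 6.32 in male 2, so its slope is understated on this scale. Sorcs3, a neuronal sorting receptor of the Vps10 family, went the other way, by -0.30 ± 0.03 per unit of Sgk1 (limma, adjusted p = 0.021; r = -0.97), from 8.23 in male 6 to 7.62 in male 2.

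Of the 26 probes called with Errfi1, 20 were named and 6 had no symbol. Besides the 2 members and Zfp189, the named ones that rose with Errfi1 included the Klf family transcription factors Klf13 (slope 0.69 ± 0.09, adjusted p = 0.035 by limma) and Klf15 (0.65 ± 0.09), the epidermal growth factor receptor ligand Tgfa (1.17 ± 0.16), the gap junction gene Gja4 and the scaffold gene Nedd9. Klf15 is itself a known glucocorticoid target, and Tgfa activates the receptor that the Errfi1 protein inhibits. Those that fell with Errfi1 were Ifi44, an interferon-induced gene (slope -0.68 ± 0.08, adjusted p = 0.026), Sorcs3, Timm8b, Kctd13, Tusc2 and Ggact. Zfp189, Sorcs3, Klf13, Klf15, Tgfa, Ifi44, Gja4, Nedd9 and the others named here from these calls, Pdk4 aside, were picked after their values were seen.

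**Figure D5:**
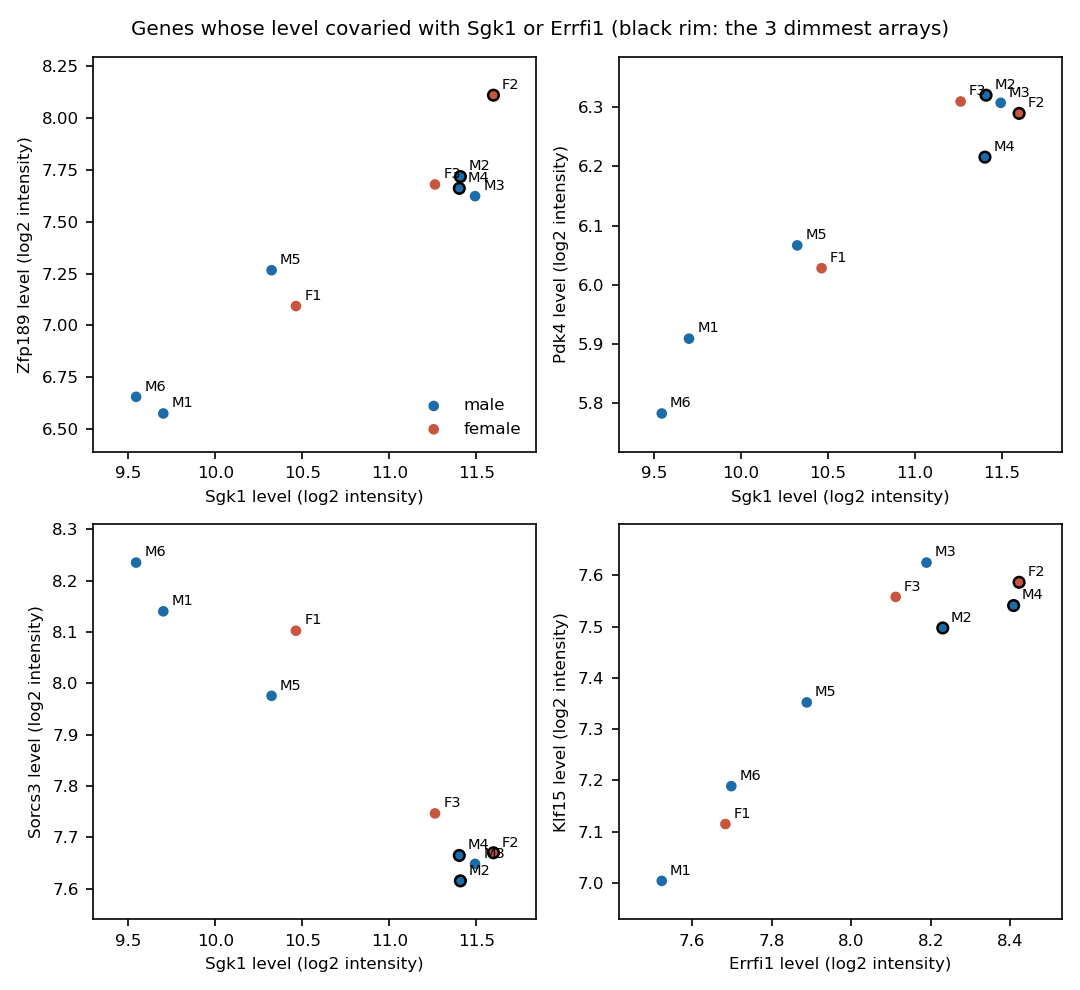
Level of Zfp189, Pdk4 and Sorcs3 against Sgk1 and of Klf15 against Errfi1 (log2 intensity), with blue points for 6 males, red points for 3 females and a black rim on the 3 dim arrays. Zfp189 and Pdk4 rise with Sgk1 (r = 0.96 and 0.97), Sorcs3 falls (r = -0.97), and Klf15 rises with Errfi1 (r = 0.94).

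The nearest named genes of each other member are given by r over 9 animals, as a description, since for Fkbp5, Tsc22d3, Klf9, Nr3c1, Nr3c2 and Hsd11b1 none was past the limma threshold. For Fkbp5 the highest were Guca1a (0.96, at a probe near background), Aurka (0.95), Ctrl (0.94), Dock9 (0.93) and the histamine receptor gene Hrh1 (0.92), and the lowest were Prkch (-0.95), Snai1 (-0.95) and Abcg3l1 (-0.94). Dock9 ran from 7.10 to 7.49 in males, against 7.76, 7.23 and 7.71 in females 1 to 3, with females 1 and 3 highest and male 2 lowest, as for Fkbp5, while the animals between were in another order. For Tsc22d3 the highest were the cyclin-dependent kinase inhibitor gene Cdkn1b (0.96), Gpatch4 (0.95) and Gpd1, a glycerol phosphate dehydrogenase of oligodendrocytes (0.92), and the lowest Pnma2 (-0.90), Clec2d (-0.88) and Fat4 (-0.87). Klf9 had Itgb6 (0.97), Hsd17b11 (0.94) and the sterol hydroxylase gene Cyp27a1 (0.93) nearest. For Errfi1 the nearest were Septin10, which was not called (limma, adjusted p = 0.092), and Nfkbia and Tent4a, both among its 26 calls (r = 0.95 each). Eef2 was nearest to Nr3c1 (0.94), Fstl3 to Nr3c2 (0.95) and Vps26c to Hsd11b1 (0.95).

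Among 35 other glucocorticoid-responsive genes listed, 27 were measured. In males 22 of the 27 averaged lower and 5 higher than in females, 0 were called by limma and 0 had an unadjusted p under 0.05, with a median difference of -0.10, against 51.2% lower and a median of -0.0020 over all named genes. Their r with Fkbp5 was positive for 21 of 27, with a median of 0.30, against 51.2% and 0.02 over 10327 named genes. With Tsc22d3 it was positive for 20 of 27, with a median of 0.39, and with Klf9 for 20, with a median of 0.16. With Sgk1 it was positive for 18 of 27 (median 0.12), with Nfkbia for 16 (0.11) and with Errfi1 for 14 (0.02). Over all named genes the shares were 50.4% for Tsc22d3, 51.7% for Klf9, 48.9% for Sgk1, 48.7% for Nfkbia and 48.1% for Errfi1. The genes closest to Fkbp5 were Gjb6, an astrocyte connexin (r = 0.89), and the transcription factors Cebpb (0.83) and Nfil3 (0.80), while Tle4 (-0.30) and Ndrg2 (-0.18) were the lowest. With Sgk1 the highest after Pdk4 were Plekhf1 (0.84) and the phosphatase gene Dusp1 (0.77), and Gadd45g had the lowest, -0.82. The closest genes differed between the members: Gjb6 had r = 0.09 with Sgk1, and Dusp1 had r = -0.04 with Fkbp5.

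Partners of the receptor were counted the same way, beside the 51.2% of all named genes that averaged lower in males. Of 18 chaperones of the receptor complex, 13 were measured, 10 lower and 3 higher in males with 0 called by limma and 2 at an unadjusted p under 0.05. Their r with Fkbp5 was positive for 10 of 13, with a median of 0.30. Chordc1, a co-chaperone of Hsp90, averaged 8.64 ± 0.12 in males (SD, n = 6) and 8.98 ± 0.15 in females (SD, n = 3), a difference of -0.34, and gave r = 0.56 with Fkbp5. Cdc37 had the highest r with Fkbp5 in that list (0.59), and Ppid, a cyclophilin co-chaperone, followed Errfi1 (0.86) and gave -0.34 with Fkbp5. Of 18 coregulators 10 were measured, 8 lower and 2 higher in males with 0 called; their r with Fkbp5 was positive for 2 of 10, with a median of -0.11, and Crtc2 (0.69) and Ncoa1 (-0.66) marked the ends of the range with Fkbp5. Of 20 genes of steroid supply and the hypothalamic-pituitary-adrenal axis 10 were measured, 6 lower and 4 higher in males with 0 called. Crhbp, which binds corticotropin-releasing hormone, gave the highest r with Fkbp5 in that list (0.63), and Akr1c14, a steroid reductase, gave -0.83 with Errfi1.

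The families of single members were counted as well. Over all named genes, r was positive for 48.7% with Nfkbia and 48.1% with Errfi1, and 51.2% averaged lower in males. Of 10 measured NF-kappa-B pathway genes, 5 were lower and 5 higher in males with 0 called, and their r with Nfkbia was positive for 4 of 10, with a median of -0.07. Of 10 measured Klf relatives, 6 were lower and 4 higher in males with 0 called, and 7 correlated positively with Errfi1, with a median r of 0.29. Klf13 and Klf15 gave r = 0.94 each, whereas Klf6 gave -0.86. The summed Klf level gave r = 0.86 with Nfkbia (n = 9, exact permutation p = 0.0025, rho = 0.78), or 0.41 without the 2 farthest animals, on which it thus rests. Klf13 and Klf15 are part of that sum and gave r = 0.90 and 0.89 with Nfkbia. The Klf sum was not computed without them, so its r is not separate from their calls with Errfi1. Of 6 measured SGK and TSC22 relatives and SGK substrates, 1 was lower and 5 higher in males with 0 called; Ndrg1 gave r = 0.82 and Nedd4 gave -0.81 with Fkbp5. Of 10 measured ERBB genes, 7 were lower and 3 higher in males with 0 called, and 7 correlated positively with Errfi1, with a median r of 0.30. Tgfa gave the highest r with Errfi1 (0.92), while Egfr, dim on these arrays, gave -0.44. Tgfa, already called with Errfi1, is part of the summed ERBB level. It ran from 7.51 to 8.56, whereas that sum ran only from -0.04 to 0.11. The sum was not computed without Tgfa, so its r with Errfi1 is not separate from that call. The summed ERBB level gave r = 0.88 with Errfi1 (n = 9, exact permutation p = 0.0032; rho = 0.83; 0.83 without the 2 farthest animals; 0.91 over the 6 brighter arrays) and 0.87 with Sgk1 (exact p = 0.0035).

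Clock genes, which corticosterone and time of day are known to move, and activity genes were examined beside the response genes. Of 14 measured clock genes, 10 were lower and 4 higher in males with 0 called by limma; Per2, a clock repressor, gave r = 0.87 with Nfkbia, and Bhlhe40 gave 0.86 with Tsc22d3. The summed level of the clock list gave r = 0.92 with Nfkbia (n = 9, exact permutation p = 0.00077; rho = 0.88; 0.84 without the 2 farthest animals; 0.95 over the 6 males). It gave 0.85 with Sgk1, 0.79 with Errfi1 and 0.81 with Tsc22d3, but 0.30 with Fkbp5. That contrast was absent over the 6 brighter arrays. There the clock level gave 0.88 with Fkbp5, 0.82 with Sgk1, 0.76 with Errfi1, 0.87 with Tsc22d3 and 0.95 with Nfkbia. Of the 14 clock genes, 6 correlated positively with Fkbp5, 12 with Tsc22d3 and 10 with each of Sgk1, Errfi1 and Nfkbia. Over all named genes those shares were 48.1% (Errfi1) to 51.2% (Fkbp5). All 16 measured immediate early genes, which neuronal activity induces, averaged lower in males, 0 called by limma and 5 at an unadjusted p under 0.05. Over the array, 51.2% of named genes averaged lower in males, and 2.37% of tested probes had an unadjusted limma p under 0.05. The summed level of these genes was 0.27, -0.01 and 0.15 in females 1 to 3 and -0.20 to 0.09 in males. Female 2 thus lay among the males, and the genes are not independent counts. Fos (r = 0.90), Arc (0.86) and Egr1 (0.79) were close to Fkbp5, and the male minus female difference of Arc was -0.72 (limma, unadjusted p = 0.033). The summed level of that list gave r = 0.84 with Fkbp5 (n = 9, exact permutation p = 0.0038; rho = 0.75; 0.81 without the 2 farthest animals; 0.67 over the 6 males). With Sgk1 it gave 0.15, with Errfi1 -0.02 and with Nfkbia 0.25. Over the 6 brighter arrays these values were 0.59, 0.45 and 0.78 in the same order, beside 0.85 with Fkbp5, so the separation was smaller there. In all, 189 relations of members with list levels and array intensity were computed, and none passed Benjamini-Hochberg adjustment over them, where the smallest adjusted p was 0.12 by the exact test.

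Markers of other cells were set beside the sex differences. All 13 measured meningeal fibroblast markers averaged higher in males, with 0 called by limma, and their summed level ran from -0.25 to 0.36 in males and from -0.48 to 0.02 in females. That level gave r = -0.10 with Sgk1, 0.05 with Fkbp5 and -0.37 with Tsc22d3 (n = 9; exact p of 0.80, 0.89 and 0.33). The summed endothelial and pericyte level was -0.03 to 0.12 in males and -0.11 to -0.07 in females, so the sexes did not overlap. It gave r = -0.72 with Tsc22d3 (exact p = 0.033), -0.69 with Klf9 (exact p = 0.038) and -0.70 with Fkbp5 (exact p = 0.040). Over the males alone r was -0.48, -0.52 and -0.62 in the same order. Oligodendrocyte and myelin markers averaged lower in males for 11 of 13 genes. Over all named genes 51.2% averaged lower in males. The part of these cell markers in the members' sex differences was not tested.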

How the data were processed

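Per the labels' protocols, cortex RNA of 9 control rats was amplified, labelled with biotin and run on Illumina bead arrays for rat. The authors deposited 1 linear intensity per probe for 22517 probes, without detection p-values; the scanner software is not given in the sources used here. Their series table of log2 values for 15912 probes, deposited by the authors and quantile-normalized as judged from its values, served as an alternative.

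Intensities were corrected with normexp (offset 50) and quantile-normalized on the log2 scale (limma 3.58.1, R 4.3.3); the offset understates fold changes of dim probes. A probe counted as detected above its array's 25th percentile, and tests covered the 18531 probes with 3 or more such arrays, adjusted by Benjamini-Hochberg. Symbols came from the platform annotation (10687 probes), updated through RefSeq (GRCr8). Sex and replicate names follow the labels; the unexplained title number was used as a block in an alternative fit. Single relations used exact permutation over animals. A list gene's probe was its brightest by mean level, and a list's summed level was the mean deviation of its genes from their medians, members left out.

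Named genes were the 3 with the highest r for each member, the 10 highest and 3 lowest for Fkbp5 and Tsc22d3 (given in part), and in each list the genes with the highest or lowest r with Fkbp5 or the smallest p between sexes; list genes named for r with another member were chosen after their values were seen. The members and lists were chosen with earlier results of these data known. Procedures were tested on simulated data. Alternatives changed the background, normalization, filter, covariates, weights or arrays. The number of arrays limits the precision.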

Additional observations from a re-analysis of the deposited data

How the results depend on the processing

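Of 590 alternative values, 459 kept their direction and their side of the threshold, or, for a count, stayed within 1.5 times. Some of these could not change direction. Another filter, an intensity trend or the title block leaves a member's sex difference the same by construction, and only its p can move. The 459 therefore overstate how stable the results were. The male minus female count was 0 under all 19 alternatives run, and the adjusted p of every member stayed at 0.98 or above. The correlations among Sgk1, Errfi1 and Nfkbia (0.88 to 0.995) and of Tsc22d3 with Klf9 (0.78 to 0.93) kept an exact p under 0.05 in all 17 alternatives each; these, and the fits on Sgk1, Errfi1 and Nfkbia, were varied in ways added after seeing the data. The probes called with Errfi1 (26 as reported) were 0 with a floor of 64, without normalization, without the 3 dimmest arrays, with title number as a block and in males alone, 4 with scaling to the 75th percentile, 5 with sex as a covariate, 14 among probes detected on all arrays and 0 to 114 with 1 animal left out. Those with Nfkbia (3) were 0 under the first 5 of these, 1 with sex as a covariate and 0 to 1 with 1 animal left out. Those with Sgk1 (3) were 1 with a floor of 64 and in males alone, 0 without normalization, without the dimmest arrays and with the title block, 5 without a filter and 0 to 6 with 1 animal left out. With Fkbp5 the count was 0 to 2 (2 without male 5) and over title numbers 0 to 1 (1 without male 4). The cause of these shifts was not tested, beyond the fewer arrays of some settings.

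Signs turned for small values. The Nr3c2 sex difference was 0.015 with the floor, 0.020 without normalization, 0.0038 with array weights and -0.053 to 0.027 with 1 animal left out; that of Hsd11b1 was 0.045 without normalization and -0.12 to 0.054, and that of Errfi1 -0.28 to 0.092, with 1 animal left out. The r of Fkbp5 turned to 0.66 (Sgk1), 0.44 (Errfi1), 0.74 (Nfkbia) and 0.41 (Hsd11b1) without the dimmest arrays, to 0.013 (Sgk1) and 0.29 (Nr3c1) in males, to 0.13 and 0.0077 (Nfkbia) without normalization and with 75th percentile scaling, and to 0.35 (Nr3c1) without the 2 animals farthest from its median. With 1 animal left out it was -0.16 to 0.11 for Sgk1 and -0.27 to 0.11 for Nfkbia. With the floor of 64 the Nr3c1 probe was constant and gave no value. Calls were gained for Fkbp5 with Tsc22d3 (0.78) and Klf9 (0.69) without normalization, with Nr3c1 (-0.77) under 75th percentile scaling and with Nr3c2 (-0.74) without female 1. Replicate numbers within a sex are names only and pair no animals. With the title number as a block the sex count stayed at 0. Each number holds 2 males and 1 female, so the block could change the errors of the members' sex differences but not the differences themselves. Their unchanged values are therefore no check on the title number.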
